A study of Gallus gallus with 60 samples.

Results

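Type I interferons are secreted when a cell senses viral nucleic acid, and they bind the receptor pair IFNAR1 and IFNAR2 on the same and on neighbouring cells. The receptor activates Janus kinases and STAT transcription factors, which switch on a large set of interferon-induced genes whose products block viral replication. In brain tissue such genes are kept at a low tonic level and can be induced in neurons, glia and microglia. The genes described here are 9 of this set, chosen by name with earlier results of these data known. They are the transcription factors IRF7 and IRF1 and the double-stranded RNA binding proteins EIF2AK2 and OASL. The others are the antiviral or accessory proteins MX1, IFIT5, RSAD2, CMPK2 and IFI6. On the Affymetrix chicken array the 9 genes were measured by 10 probe sets (IFIT5 by 2, the other genes by 1 each). The array holds 38535 probe sets and 13009 genes with a symbol.

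The tissue was the posterior cerebrum, taken without meninges from 60 laying hens of 65 to 67 weeks of age, each hybridized to an array of its own. They were 28 hens of the white-feathered Lohmann Selected Leghorn (LSL) line and 32 hens of the Lohmann Brown (LB) line, all kept in a small group housing system with 36 or 54 hens per compartment (LSL 13 and 15 hens, LB 15 and 17 hens). Lines were not mixed within a compartment, group size is a property of the compartment, and the labels do not say which hens shared one. Neither line nor group size can therefore be fully told apart from compartment, and p-values measure the spread between single hens. The labels name no infection and no treatment. The authors report that the hens were vaccinated by a common scheme while reared and while laying. They also told stressed from unstressed hens at sampling by behaviour, plumage and skin lesions. The labels do not say which hens were stressed.

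The deposited values are on the log2 scale and have a median of 0 for each probe set within hens 1 to 30 and again within hens 31 to 60. They show how far a hen lies from the middle of its own set of arrays, not how strongly a gene is expressed, so neither the expression of these genes nor the presence of defining markers of the cerebrum could be read from them. Hens 1 to 30 hold 15 LSL and 15 LB hens, and hens 31 to 60 hold 13 LSL and 17 LB hens. The left side of the cerebrum was sampled in 6 hens, all of the second set. LB hens 7, 8 and 16 were lowest in the actin control, with 5' minus 3' differences of -1.69, -2.88 and -2.89 against -1.33 to 0.24 in the other 57 hens. Hens 8 and 16 stood apart, while LSL hen 9, at -1.33, lay close to hen 7. In the GAPDH control hens 8 and 16 had -0.55 and -0.59, hen 9 had -0.17 and hen 7 had 0.03. Fits without hens 7, 8 and 16 leave out LB hens only.

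Compared with LB hens, LSL hens had lower values in 5 of the 10 probe sets, those of IFI6, OASL, IFIT5 (the probe set ending in S1), IRF7 and EIF2AK2. The differences lay between 1.19-fold and 1.45-fold (limma with array set as block, p-values adjusted over all probe sets). No member was higher in LSL. Over the whole array 18.4% of probe sets passed the same test, 10.2% lower and 8.13% higher in LSL, so a call in the line comparison was common. The median difference of the 10 probe sets was -0.18, against -0.01 over all probe sets. The members were chosen with earlier results of these data known, so this contrast with the array is not independent of the data. In 58 probe sets of other interferon-induced genes the median difference was -0.02, with 3 higher and 9 lower in LSL.

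IRF7 is the transcription factor that amplifies interferon transcription, and in birds it also stands in for IRF3, which the chicken lacks. In hens 1 to 30 its centred log2 values ran from -0.64 through a median of -0.20 to 0.13 in LSL and from -0.46 through 0.18 to 0.62 in LB. In hens 31 to 60 they ran from -0.30 through -0.06 to 0.23 in LSL and from -0.24 through 0.14 to 0.34 in LB. The ranges overlapped in both sets, but all 15 LSL hens of the first set lay below the LB median and 10 LB hens lay above every LSL hen. The difference LSL minus LB was -0.29 (SE 0.054, n = 28 and 32, limma adjusted p = 3.334e-05). LB hens 8 and 16 had the highest deviations of IRF7 from the median of their set and line, and without hens 7, 8 and 16 the difference was -0.25 (limma adjusted p = 0.0001977).

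IRF1, a transcription factor induced by interferon gamma as well as by type I interferon, varied widely between hens but not with the line. Its values in hens 1 to 30 ran from -0.53 to 0.87 in LSL and from -0.75 to 0.79 in LB, with medians of -0.02 and 0.01. In hens 31 to 60 the medians were 0.03 and -0.03. LSL and LB hens overlapped throughout, and the difference was 0.03 (SE 0.087, 95% interval -0.15 to 0.20, limma adjusted p = 0.8916).

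EIF2AK2 encodes the kinase PKR, which binds double-stranded RNA and halts translation. Its values in hens 1 to 30 ran from -0.47 through -0.11 to 0.32 in LSL and from -0.10 through 0.13 to 0.51 in LB. In hens 31 to 60 they ran from -0.36 through -0.13 to 0.25 in LSL and from -0.08 through 0.12 to 0.40 in LB. All 32 LB hens lay above the LSL median of their own set, and 26 of 28 LSL hens lay below the LB median. The difference was -0.25 (SE 0.041, limma adjusted p = 3.363e-06), the smallest adjusted p among the members although not the largest difference, since EIF2AK2 varied little between hens of a line.

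OASL belongs to the oligoadenylate synthetase family, which binds double-stranded RNA. Its values in hens 1 to 30 ran from -0.68 through -0.28 to 0.60 in LSL and from -0.30 through 0.16 to 1.44 in LB, and in hens 31 to 60 from -0.36 through -0.13 to 0.61 and from -0.14 through 0.06 to 0.37. Single hens lay far above the rest in both lines, with LB hen 2 highest in the first set and LSL hen 49 highest in the second. The LB median nevertheless lay above 23 of 28 LSL hens, and the difference was -0.32 (SE 0.085, limma adjusted p = 0.003573).

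IFI6, a small interferon-induced membrane protein, had the largest line difference of the members. In hens 1 to 30 its values ran from -0.88 through -0.26 to 0.88 in LSL and from -0.77 through 0.56 to 2.16 in LB. In hens 31 to 60 they ran from -0.90 through -0.24 to 1.12 and from -0.59 through 0.09 to 0.86. In the first set 7 LB hens lay above every LSL hen, while in the second set none did. The difference was -0.53 (SE 0.16, limma adjusted p = 0.01094), that is 1.45-fold lower in LSL.

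IFIT5, the only IFIT protein of the chicken, recognises foreign RNA by its 5' end, and its 2 probe sets gave different answers. The S1 probe set ran in hens 1 to 30 from -1.03 through -0.46 to 1.61 in LSL and from -1.28 through 0.45 to 2.56 in LB, and in hens 31 to 60 from -0.71 through -0.33 to 1.003 and from -0.45 through 0.18 to 0.82. Both lines spanned most of the range, and the difference was -0.49 (SE 0.18, limma adjusted p = 0.0469). This adjusted p lies close to the threshold, and the call was lost in 33 of 60 fits that each left out 1 hen, while the difference stayed between -0.55 and -0.41. Without LB hen 2 the difference was -0.41 (limma adjusted p = 0.08196). Leaving out LB hens 7, 8 and 16, which had the lowest deviations of this probe set among all hens, gave -0.63 (limma adjusted p = 0.003658). The A1 probe set had medians between -0.02 and 0.01 in each line and set, and a line difference of -0.02 (95% interval -0.11 to 0.07, limma adjusted p = 0.7904).

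MX1, a GTPase that traps viral nucleocapsids in mammals, did not pass, with a difference of -0.11 (95% interval -0.22 to 0.01, limma adjusted p = 0.2237). RSAD2, the enzyme viperin, which makes a chain-terminating nucleotide, gave -0.09 (95% interval -0.18 to -0.01, limma adjusted p = 0.1207). CMPK2, a mitochondrial nucleotide kinase, gave 0.00 (95% interval -0.12 to 0.12, limma adjusted p = 0.9917). CMPK2 and RSAD2 lie next to each other in the chicken gene table, with 0 protein-coding genes between them. In these 3 genes 18, 18 and 16 of 28 LSL hens lay below the LB median of their set. For RSAD2 the sets differed, since in hens 1 to 30 LSL ran from -0.34 to 0.29 and LB from -0.15 to 0.31, with 6 of 15 LSL hens below every LB hen, against 1 of 13 in hens 31 to 60.

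**Figure D1:**
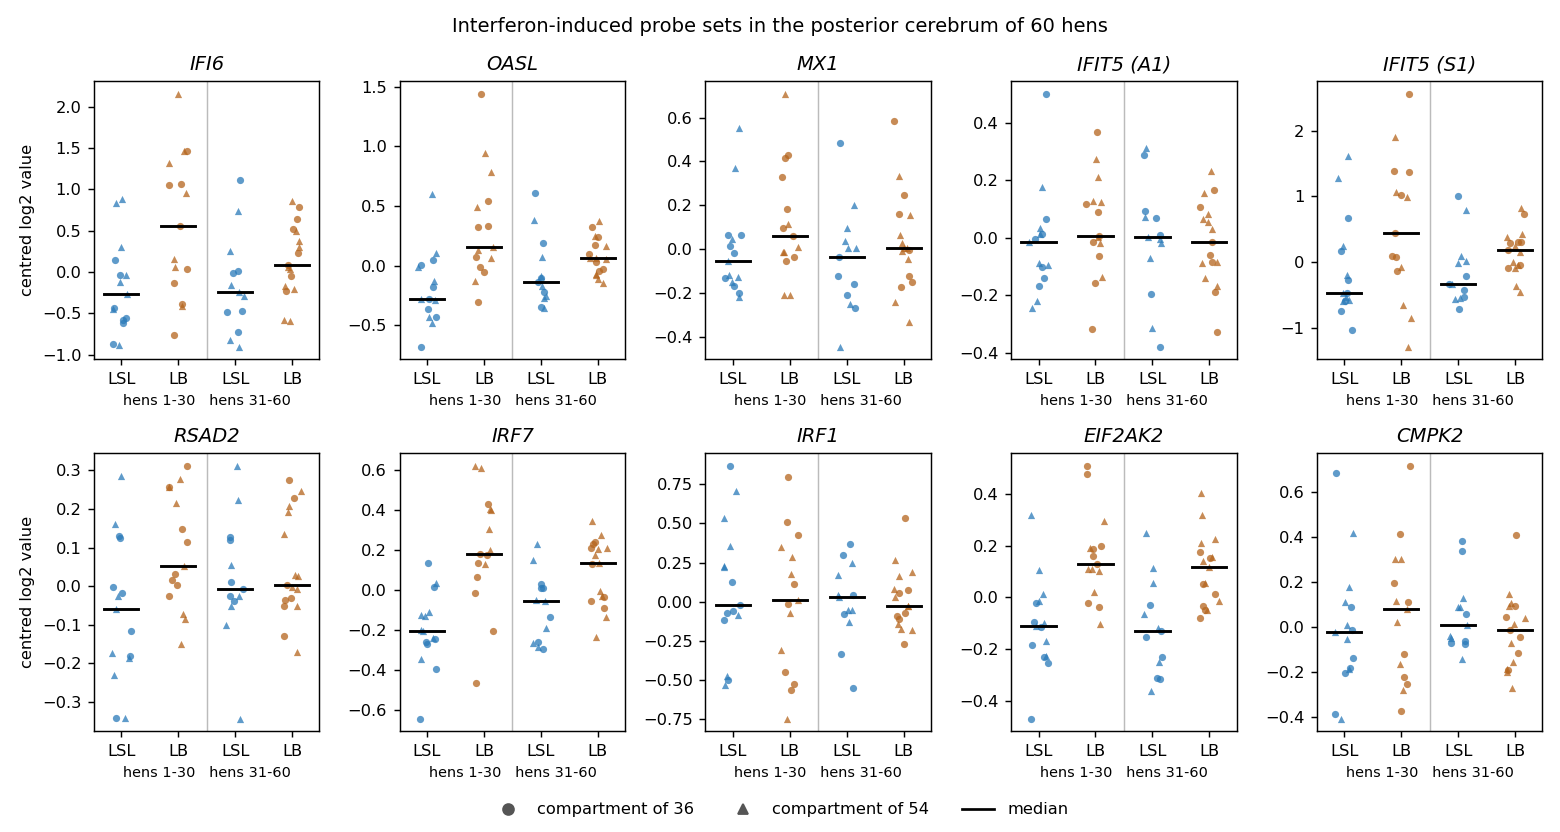
Centred log2 value (y axis) of each hen for the 10 probe sets, by line and by set of arrays (x axis), with circles for compartments of 36 hens, triangles for compartments of 54 hens and a bar at the median. LB hens lie higher than LSL hens for IRF7 and EIF2AK2 in both sets, while the lines overlap throughout for IRF1, CMPK2 and the A1 probe set of IFIT5.

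The line differences were larger in hens 1 to 30 than in hens 31 to 60 for most members. Fitted within hens 1 to 30, the difference was -0.78 for IFI6, -0.51 for OASL, -0.41 for IRF7 and -0.26 for EIF2AK2, all past the threshold, and -0.62 for the S1 probe set of IFIT5, which was not (limma adjusted p = 0.2484). Within hens 31 to 60 the values were -0.32, -0.13, -0.18, -0.22 and -0.31 in the same order, and EIF2AK2 was the member that passed there (limma adjusted p = 0.004797). IRF7 lay just outside the threshold in that set (limma adjusted p = 0.05461), and OASL and IFI6 gave adjusted p-values of 0.3363 and 0.2896. Tested directly, the change of the line difference between the sets passed for 0 of 10 probe sets (2 at an unadjusted p under 0.05, OASL with 0.38 and IRF7 with 0.23). Over the array 0.013% of probe sets passed, and 2944 of 38535 had an unadjusted p under 0.05.

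Marker genes of other cells were set beside the line difference. Of 19 probe sets of microglia and macrophage markers, 2 were lower in LSL (CD83, an immune cell activation marker, by -0.21, and CTSS, a lysosomal protease, by -0.19), and none was higher. The median of this list over its probe sets ran in hens 1 to 30 from -0.30 to 0.44 in LSL and from -0.17 to 0.21 in LB, and in hens 31 to 60 from -0.17 to 0.28 and from -0.19 to 0.28. Of 23 probe sets of lymphocyte markers 4 were higher in LSL, led by JCHAIN, the joining chain of immunoglobulins, with 1.477, and 1 was lower. Of 14 probe sets of erythrocyte markers 1 was higher and none was lower. Of 22 neuronal probe sets 2 were higher and 3 lower, all 3 of the vesicle protein gene SYT1 (-1.03, -0.98 and -0.80), and of 10 astrocyte probe sets 1 was higher and 1 lower (SPARCL1, -0.99). Of 11 oligodendrocyte probe sets 2 were higher, led by CLDN11 (0.71), of 40 vessel probe sets 3 were higher and 2 lower, both of PECAM1 (-0.38 and -0.22), and of 32 probe sets of meninges and choroid plexus 1 was higher. These counts stand against 18.4% of all probe sets past the same test. With the actin difference as a covariate the same 5 probe sets passed, with IRF7 at -0.26 and the S1 probe set of IFIT5 at -0.58. The part of these markers and of RNA quality in the line difference of the members was not tested.

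The line difference was then taken within each group size. In compartments of 36 hens 3 of 10 probe sets passed, against 9.07% of all probe sets: EIF2AK2 with -0.32 (limma adjusted p = 9.389e-05), IRF7 with -0.24 (0.03976) and the S1 probe set of IFIT5 with -0.83 (0.02869). In compartments of 54 hens 2 of 10 passed, against 15.5% of all probe sets: IRF7 with -0.33 (limma adjusted p = 0.0006915) and EIF2AK2 with -0.18 (0.02312). IRF7 and EIF2AK2 were thus lower in LSL hens at both group sizes. IFI6 (-0.59 in compartments of 36 and -0.47 in 54) and OASL (-0.35 and -0.29) were lower too, with 95% intervals below 0. They did not pass (limma adjusted p = 0.1039 and 0.1316 for IFI6, 0.06182 and 0.0788 for OASL). The S1 probe set of IFIT5 differed by -0.14 in compartments of 54, yet its change between the group sizes was 0.70 with a 95% interval of -0.01 to 1.41 and did not pass (limma adjusted p = 0.3919). LB hens 7, 8 and 16, which had the lowest deviations of this probe set, all came from compartments of 54. No member had a line difference that changed with group size (0 of 10, also 0 at an unadjusted p under 0.05). Over the array 0% of probe sets passed, and 4975 of 38535 had an unadjusted p under 0.05.

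Group size itself moved no member past the threshold. For 54 minus 36 hens per compartment, 0 of 10 probe sets passed, against 0.0156% of all probe sets (limma, 1 member and 4045 probe sets at an unadjusted p under 0.05, 0 members with the methods' t-test). EIF2AK2 was 0.09 higher in compartments of 54 (95% interval 0.01 to 0.17, limma adjusted p = 0.4431) and IRF7 0.11 higher (95% interval -0.002 to 0.213, limma adjusted p = 0.4851). The value of IFI6 was 0.13, from 0.45 within hens 1 to 30 and -0.17 within hens 31 to 60, neither of which passed (limma adjusted p = 0.4672 and 0.7808). For IFI6 the interval of the pooled value reached from -0.18 to 0.45 and for the S1 probe set of IFIT5 from -0.42 to 0.29, so differences within these bounds could not be told from 0 with these hens. Within LSL hens and within LB hens 0 of 10 probe sets passed, against 0.00519% of all probe sets in each line. Without LB hens 7, 8 and 16, all from compartments of 54, the difference 54 minus 36 was 0.06 for IRF7 and 0.09 for EIF2AK2. For the S1 probe set of IFIT5 it was 0.08, against -0.06 over all 60 hens.

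**Figure D2:**
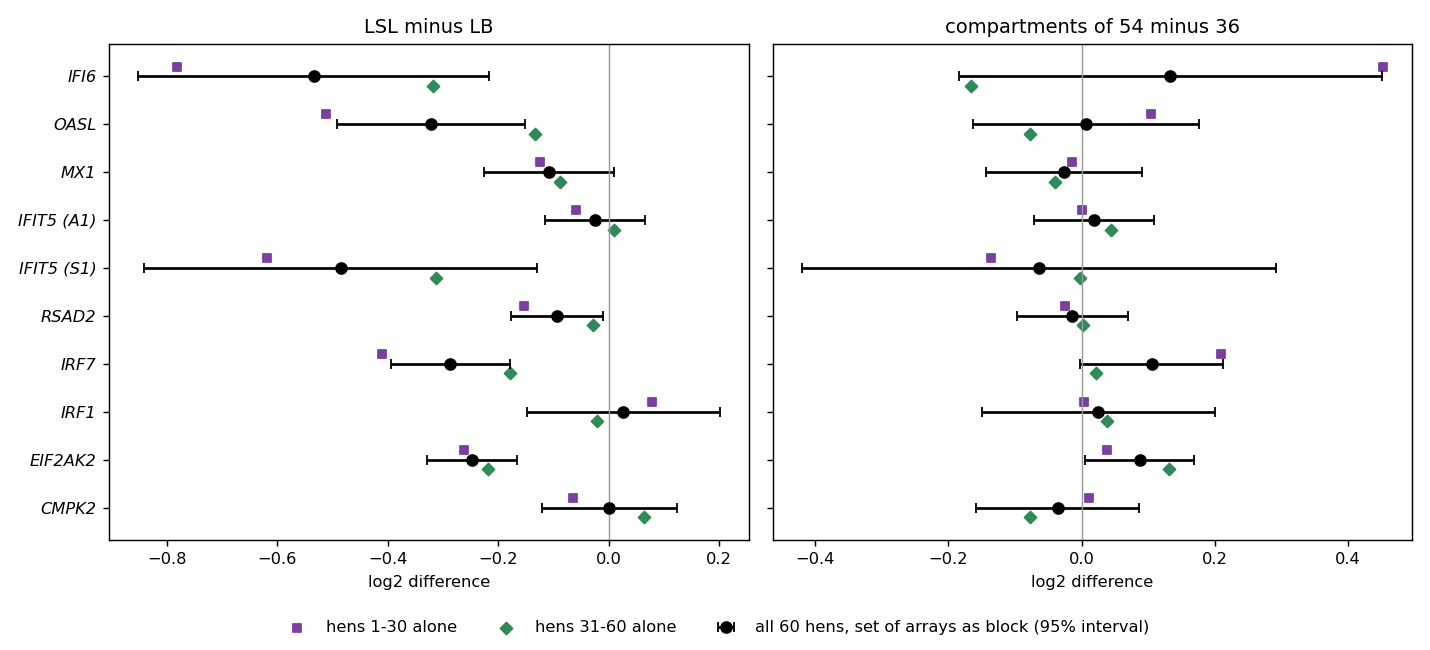
Log2 differences (x axis) of the 10 probe sets (y axis) between the lines (left) and between the group sizes (right); black points with 95% intervals are the limma fit over 60 hens with array set as block, squares hens 1 to 30 alone and diamonds hens 31 to 60 alone. For IRF7 and EIF2AK2 the squares and diamonds lie on the same side of 0 as the pooled line difference, at -0.41 and -0.18 and at -0.26 and -0.22.

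To see whether single hens showed a joint rise, each value was set against the median of the hens of the same line and set of arrays and divided by the scaled median absolute deviation (MAD) of that probe set. A gene counted as raised at 2 or more scaled MADs, and a hen as showing a joint rise with at least 5 of the 9 genes raised. By this rule 1 of 60 hens did so, LB hen 2 from a compartment of 36 hens. In 42 hens (21 LSL and 21 LB) no gene was raised, in 10 hens 1 gene, in 4 hens 2 genes, in 1 hen 3 genes and in 2 hens 4 genes. MX1 was raised in the most hens (7), followed by OASL and IRF1 (6 each), CMPK2 (5), EIF2AK2 (4), IFIT5 (3), IFI6 and IRF7 (2 each) and RSAD2 (0). IFIT5 counted here as the mean of its 2 probe sets, and its place in this order rests on that averaging. In hens 5 and 49 its S1 probe set alone stood at 3.90 and 2.97 scaled MADs, but the mean did not reach 2. With each gene as its probe set of largest SD, hens 5 and 49 reached 5 genes as well. Over all probe sets the share raised in a hen had a median of 3.92%. At 2 or more scaled MADs below the median, IRF1 was lowered in 6 hens, as many as had it raised. CMPK2 was lowered in 3 hens, IRF7 in 2, and IFI6, OASL, MX1 and EIF2AK2 in 1 each.

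In LB hen 2 all 9 genes lay above the median of the 15 LB hens of its set. The S1 probe set of IFIT5 had a value of 2.56, which was 4.32-fold that median, and OASL had 1.44, or 2.43-fold. IFI6 stood at 1.47 (1.87-fold), IRF1 at 0.79 (1.72-fold) and CMPK2 at 0.72 (1.56-fold). IFIT5 and OASL thus rose furthest, and EIF2AK2, at 0.51, rose 1.30-fold. MX1 stood at 0.43 (1.29-fold), the A1 probe set of IFIT5 at 0.37 (1.28-fold), RSAD2 at 0.31 (1.196-fold) and IRF7 at 0.43 (1.19-fold). Hen 2 was the highest of the 15 LB hens of its set in 7 of 10 probe sets and the highest of all 30 hens of its set in 5, while for IFI6 and IRF7 it was the 3rd of 30 in both.

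The array of hen 2 did not stand apart as a whole. Of all probe sets 3.15% were raised in it, against 1.75% to 20.1% (median 3.92%) over the 60 hens, and its actin 5' minus 3' difference was 0.01. Microglia and macrophage markers were not raised (0 of 19 probe sets, median -0.03 scaled MADs, 36th of 60 hens), and neither were interferon ligands (0 of 4) nor interferon receptors (0 of 16). Of lymphocyte markers 1 of 23 was raised. The erythrocyte markers had a median of 1.09 scaled MADs in hen 2, the 8th highest of 60 hens, with 1 of 14 raised, and the part of blood in its values was not tested. The 685 probe sets for avian viruses on the array lay low in this hen (median -0.28, the 58th of 60), with 12 of them raised.

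Some other genes of the pathway rose beside the members in hen 2. Of 58 probe sets of other interferon-induced genes 9 were raised, against 3.15% of all probe sets in this hen. The list median of 0.55 scaled MADs was the 3rd highest of 60 hens. The genes named here were chosen after their values were seen. CCL19, a chemokine for T cells and dendritic cells, lay 0.88 above the median of line and set and PARP14, an ADP-ribosyltransferase, 0.87. ZC3HAV1, which marks viral RNA for decay, lay 0.73 above it in 1 probe set. Of 40 probe sets of nucleic acid sensing genes 5 were raised. They included 1 probe set of TRIM25, the ubiquitin ligase of RNA sensing, with 0.91, and 1 of TLR3, a receptor for double-stranded RNA, with 0.27. LSM14A, an RNA-binding protein, had 2 raised, with 2.68 and 0.53. Other probe sets of TRIM25, TLR3 and LSM14A were not raised.

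LSL hens 5, 24 and 49 came next, with subsets of the members that differed but all held MX1. The S1 probe set of IFIT5 stood at 3.90, 4.63 and 2.97 scaled MADs in these hens. As the mean of its 2 probe sets, IFIT5 counted as raised in hen 24 alone of them. Of the 58 probe sets of other interferon-induced genes 9, 7 and 5 were raised in hens 5, 24 and 49. The shares over all probe sets were 5.21%, 4.12% and 3.02%. Of the 40 probe sets of nucleic acid sensing genes 5, 1 and 3 were raised, so such a rise was not particular to hen 2. Of the 16 probe sets of interferon receptors 3, 1 and 0 were raised in hens 5, 24 and 49. The 3 of hen 5 all belonged to IFNAR2 and lay 1.04, 0.58 and 0.26 above the median of line and set. Hen 5 had 4 genes raised, OASL (1.84-fold its line and set median), MX1 (1.52-fold), IRF1 (1.65-fold) and EIF2AK2 (1.35-fold), and its S1 probe set of IFIT5 was 3.35-fold while the A1 probe set was the lowest of the 15 LSL hens. This hen also had the highest microglia and macrophage markers of all 60 hens, with a median of 2.06 scaled MADs. Of their 19 probe sets 11 were raised, against 5.21% of all probe sets in this hen. Among them LY86 lay 1.24 and C1QA, a complement component made by microglia, 0.93 above the median of line and set. Of 23 lymphocyte probe sets 5 were raised in hen 5, those of CD3E (1.07 above that median) and CD3D (0.82) and some of BLB1 and PTPRC. The T cell genes CD247, CD4, CD8A, CD28, LCK and ZAP70 were not among them. Although the tissue was taken without meninges, 8 of 32 probe sets of meninges and choroid plexus markers were raised in this hen, most of them of matrix genes. LUM and OGN, proteoglycans of connective tissue, lay 3.36 and 2.13 above the median of line and set, the collagen genes COL1A2 and COL1A1 1.74 and 1.27, and DCN 1.25. Of 40 vessel probe sets 2 were raised, a share close to that over all probe sets, those of the smooth muscle genes MYH11 (2.24) and TAGLN (0.64). The part of all these cells in the values of hen 5 was not tested.

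Hen 49, of the second set, had IFI6 (2.56-fold), OASL (1.68-fold), MX1 (1.43-fold) and CMPK2 (1.30-fold) raised, and it was the highest of the 30 hens of its set in IFI6, OASL and the S1 probe set of IFIT5 (2.51-fold). All 9 genes lay above the line and set median in hens 2 and 49 alone, with IFIT5 as the mean of its 2 probe sets. The microglia and macrophage markers of hen 49 were the 7th highest of 60 (median 0.78 scaled MADs, 1 of 19 raised), and 3.02% of all probe sets were raised in it. Hen 24 had IFIT5 (4.21-fold in the S1 probe set), MX1 (1.34-fold) and IRF1 (1.47-fold) raised, while its IRF7 lay below the median at 0.91-fold. Of all probe sets 4.12% were raised in hen 24. Of these 4 hens, 3 belonged to the first set of arrays, where the spread was larger.

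How many hens count as showing a joint rise depended on the rule. With 1.5 scaled MADs hens 2, 5 and 24 did so, with 3 scaled MADs none, and with each gene taken as its probe set of largest SD hens 2, 5 and 49. Hen 2 was named by every rule tried that named any hen. Joint lowering was rarer still, with at most 3 genes lowered in a hen, which occurred in 1 hen.

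**Figure D3:**
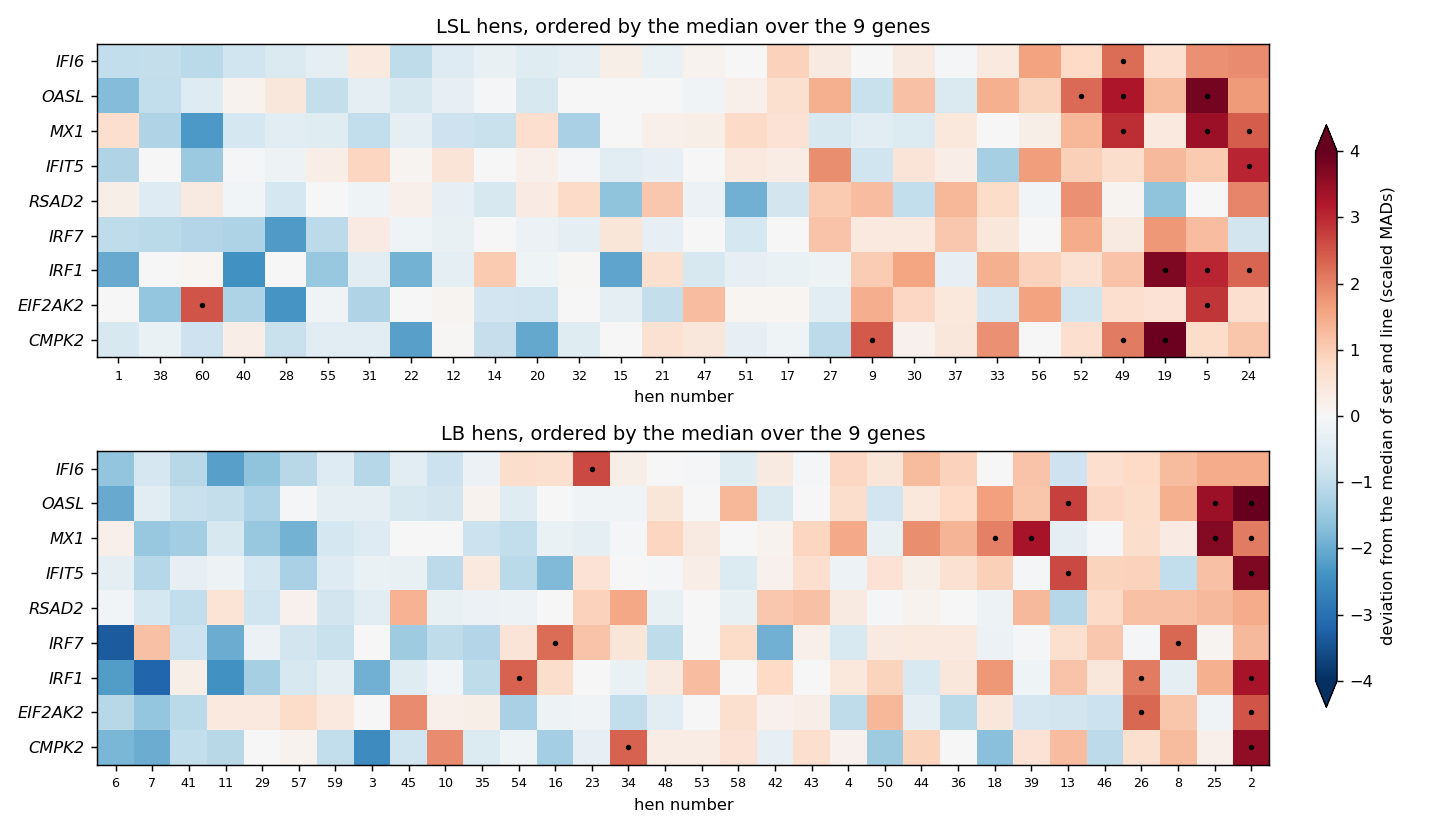
Deviation of each hen (columns, ordered by the median over the 9 genes) from the median of its line and set, in scaled MADs, for the 9 genes (rows), with LSL hens above and LB hens below. Dots mark genes raised by at least 2 scaled MADs, and LB hen 2, in the last column of the lower panel, carries 6 of them.

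The members differed in how much hens of the same line and set varied. The SD over hens was 0.72 for the S1 probe set of IFIT5 and 0.60 for IFI6, above 99.5% and 99.0% of all probe sets, followed by IRF1 with 0.34 and OASL with 0.32. EIF2AK2 and RSAD2 varied little, with 0.16 and 0.15, close to the median of 0.146 over all probe sets. The SD was larger in hens 1 to 30 than in hens 31 to 60 for 10 of 10 probe sets, by a median factor of 1.43 against 1.24 over all probe sets. LB hens 7, 8 and 16 belong to the first set.

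Across hens the members rose and fell together. After the line and set medians were taken off, Pearson's r over 60 hens was above 0 for 36 of 36 pairs of genes. The median was 0.349 and the range 0.121 to 0.643. The mean r was 0.370 over the pairs of members and 0.0073 over all pairs of probe sets. In the latter mean, correlations above and below 0 cancel, so it does not show how often other pairs reach such an r. How many other pairs would pass the test below was not computed. In a permutation test (100000 permutations within line and set, two-sided, adjusted by Benjamini-Hochberg over the 36 pairs) 21 pairs passed by r and 20 by Spearman's rho. The closest pair was IFI6 and MX1 (r = 0.643, rho = 0.614, permutation adjusted p = 9e-05 and 0.00018, r = 0.677 without the 2 hens farthest in IFI6). OASL was close to MX1 (r = 0.642, rho = 0.541), to IFIT5 (r = 0.641, rho = 0.546), to IFI6 (r = 0.630, rho = 0.663) and to IRF1 (r = 0.623, rho = 0.552), with permutation adjusted p-values of 0.000206 or less.

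Over all 60 hens, with IFIT5 as the mean of its 2 probe sets, IFI6, OASL, MX1 and IRF1 formed the centre of this pattern. Of their 8 pairs 7, 6, 6 and 7 were past the threshold by r. For IRF1 this rested on hens 1 to 30, with a median r of 0.601 over its pairs, against 0.138 in hens 31 to 60. IFIT5 had 4 of 8 pairs past the threshold, a count that may depend on the averaging. Its S1 probe set alone had r = 0.754 with the median of the member genes, IFIT5 included, and its A1 probe set 0.153. IRF1 had 0.745 on this measure, MX1 0.703, IFI6 0.792 and OASL 0.847. Pairs with the S1 probe set alone were not tested. RSAD2 stood at the edge of the pattern, with 2 of 8 pairs (with MX1 and IFI6). Its r with its neighbour gene CMPK2 was 0.214 (rho = 0.267, permutation adjusted p = 0.156 and 0.0727). EIF2AK2, the member with the firmest line difference, had the fewest pairs past the threshold, although RSAD2 had the lower median r (0.205 against 0.217). The pair of EIF2AK2 with IRF1 was the only one of its 8 that passed by r, and none passed by rho. Within hens 1 to 30 its 8 correlations lay between 0.343 and 0.537, and within hens 31 to 60 between -0.208 and 0.0469, 7 of them below 0.

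The correlations were lower in the second set of arrays. The median r was 0.427 in hens 1 to 30, with 36 of 36 pairs above 0, and 0.266 in hens 31 to 60, with 27 of 36 above 0. IFI6 and MX1 (0.586 and 0.762), OASL and MX1 (0.658 and 0.656) and IFI6 and OASL (0.639 and 0.649) held within both sets. Of the 8 pairs of IRF1, 6 were above 0 in the second set. Its r with IFI6 was 0.643 in the first set and 0.461 in the second and with IRF7 0.377 and 0.387. With OASL it was 0.726 and 0.278, with MX1 0.575 and 0.160, with IFIT5 0.626 and -0.02 and with CMPK2 0.667 and 0.115. Without LB hen 2 the median r was 0.308, and without LB hens 7, 8 and 16 it was 0.360.

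**Figure D4:**
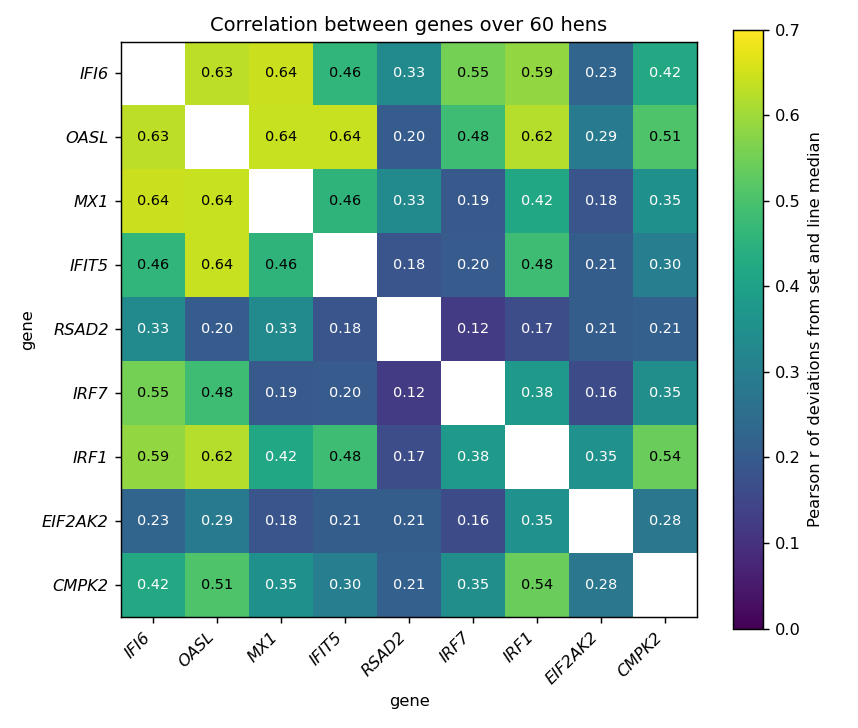
Pearson's r over 60 hens between the 9 genes (both axes), from deviations from the median of line and set, with IFIT5 as the mean of its 2 probe sets. The pairs among IFI6, OASL and MX1 lie between 0.63 and 0.64, and the pairs of RSAD2 reach at most 0.33.

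The probe sets whose pattern over the 60 hens was most like the median of the 9 genes were sought over all probe sets with 1 symbol that are no member. The correlation is a description and shares the arrays with the members. TRIM25 was most alike (r = 0.79), followed by USP41 (0.75), LOC417536 (0.72), LYGL (0.70), ZNFX1, an RNA helicase of antiviral defence (0.69), PARP14 (0.67), EPSTI1 (0.65), LOC770612 and AVD, the biotin-binding egg white protein avidin (0.61 each), and SCIN, an actin-severing protein (0.56). Without hen 2 these values lay between 0.58 and 0.77. Of these 10 probe sets, those of ZNFX1 and SCIN were lower in LSL hens, with -0.32 (limma adjusted p = 3.5e-05) and -0.73 (limma adjusted p = 2.3e-05). The other 8 did not pass the line test, and neither did a further probe set of ZNFX1 (-0.04, limma adjusted p = 0.5386).

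The rest of the pathway was described with lists of its other genes. No probe set of the interferon ligands (4 probe sets of 3 genes) passed the line test. Of 16 probe sets of the receptors 1 was lower in LSL, belonging to IFNAR2, a chain of the type I receptor, with -0.12 (limma adjusted p = 0.00777), and the other 2 probe sets of IFNAR2 gave -0.16 and -0.19 without passing. Of 19 probe sets of JAK-STAT and IRF signalling 1 was higher in LSL, IRF4, a factor of lymphocytes and myeloid cells, with 0.18 (limma adjusted p = 0.02908). The signalling chain between receptor and members thus showed few line differences.

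Of 40 probe sets of nucleic acid sensing genes 4 were higher and 4 lower in LSL, a share close to the 18.4% of all probe sets. The probe sets of a gene often differed. MAVS, the mitochondrial adaptor of RNA sensing, was lower in 2 of its 3 probe sets (-0.23 and -0.10), and TLR21, the receptor for bacterial DNA in birds, in 1 of 3 (-0.22). CGAS, the sensor of cytosolic DNA, was higher in 1 of 3 probe sets (0.19, the others 0.06 and 0.003), as was TRAF3 (0.21, the others -0.07 and -0.06). LSM14A was higher in 2 of 6 probe sets (1.24 and 0.32) and lower in 1 (-0.07). Of 58 probe sets of other interferon-induced genes 3 were higher and 9 lower, again close to the share over the array, with a list median of -0.02. GBP, a guanylate-binding protein, was lower in 2 probe sets (-0.65 and -0.36). ZNFX1 was lower in 1 of 2 probe sets as given above, and IFI27L2 was higher in 1 of 2 (0.33, the other 0.001). Of 24 probe sets of negative regulators 1 was higher (SOCS5, 0.07) and 2 were lower, SOCS2, an inhibitor of growth hormone signalling, with -0.41 and PIAS1 with -0.08. For group size, 0 probe sets passed in each of these lists.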

How the data were processed

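The authors scanned the Affymetrix chicken arrays and deposited log2 values made with RMA in GeneSpring GX, centred to the median. Each probe set had a median of 0, within 1e-06, in hens 1 to 30 and in hens 31 to 60, whereas other cuts by hen number reached at most 48.6% of probe sets, so array set entered the fit as a block. No filter on low expression was possible.

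All 38535 probe sets were fitted with limma 3.58.1 in R 4.3.3 (lmFit and eBayes on 4 groups of line and group size plus array set), with Benjamini-Hochberg adjustment over all probe sets and a threshold of 0.05. The step was tested on simulated data. Deviations, MADs and permutation tests were computed in Python 3.11.15 with numpy 2.4.6. Symbols came from the array's probe table (27178 probe sets with 1 symbol), and the RefSeq gene table of GRCg7b served only for names and neighbours. Named are all member probe sets, in each list up to 4 called genes with the largest differences, and the 10 probe sets most like the members, and some further list members were named after their values were seen. The members and lists were chosen with earlier results of these data known. Alternatives covered the block, the test, scaling, side, array set, RNA quality and single hens.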

Additional observations from a re-analysis of the deposited data

How the results depend on the processing

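The count of members lower in LSL was 5 and stayed at 4 or 5 under 12 of 13 alternatives and in every fit without 1 hen (4 to 5). It fell to 1, EIF2AK2, in hens 31 to 60 alone, and the cause was not tested (hens 1 to 30 alone, as many hens, gave 4). No called member changed direction under any alternative. IFI6, OASL and IRF7 lost their call in hens 31 to 60 alone, and the S1 probe set of IFIT5 lost it under 7 of 13 alternatives (adjusted p between 0.003658 and 0.2484): no term for the set, the methods' t-test, array medians subtracted, the right side alone, each set alone and without hen 2. Calls for group size, for its interaction with the line and for the change between sets stayed at 0 of 10 under all alternatives that could be run. Of all line calls 44.3% were higher in LSL, 50.3% after quantile normalization within each set and 49% after subtraction of array medians.

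The number of hens with a joint rise was 1. It was 3 with 1.5 scaled MADs, 0 with 3 scaled MADs, 3 with the probe set of largest SD per gene, 4 with at least 3 of 9 genes and 0 with at least 7. Chosen after seeing the data, the probe set of largest SD together with at least 3 genes gave 6 hens, and the median of the set alone together with at least 3 genes gave 4. The median r between members lay between 0.266 and 0.427, with the fit without LB hens 7, 8 and 16 chosen after seeing the data. No paired analysis was possible because no hen number recurs in another group. The search for promoter motifs was not run, and signal over background cannot be had from centred values.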
